A study of Homo sapiens with 28 samples.

Results

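The 10 genes described here encode DDX39A and factors that work with it in moving messenger RNA out of the nucleus: its paralogue DDX39B, the adaptor ALYREF, 6 subunits of the THO complex (THOC1, THOC2, THOC3, THOC5, THOC6 and THOC7) and the export receptor NXF1. They are 10 of 13897 genes named in 3 tables of gene expression. They were chosen by the FPKM of DDX39A, which was lower in all 4 comparisons of cells with knocked-down or inhibited RUVBL1 with their controls, and the other 9 genes were added for their known role beside it. Those 4 differences of DDX39A are therefore given as a description, without a test. All 10 genes had values in the 3 tables and passed the minimum mean level of 1 FPKM in every comparison.

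The study measured RNA in 20 libraries, 2 per group, from NCI-H2009 and NCI-H596, established human lines of non-small cell lung cancer that the labels list as adenocarcinoma and as wild type. In siBL1 cells RUVBL1 was targeted by siRNA, and siNT cells received the non-targeting siRNA siNTC, with 2.5 days of siRNA in H2009 and 3 days in H596. Other cells of both lines were exposed to Compound B or to Compound C at 100 nM for 24 h, or were left untreated; both compounds carry code names without a structure. The series names Compound B as the RUVBL1 inhibitor. No vehicle is given for the untreated cells. RUVBL1 itself lay at 1.11 to 2.52 FPKM in the 4 siBL1 libraries and at 64.3 to 123 FPKM in the 4 siNT libraries. FPKM counts sequenced fragments scaled by transcript length and by library size, so levels can be compared between genes of a table. The read depth behind the values is unknown.

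As a check of the labels, the epithelial markers EPCAM, KRT8, KRT18, KRT19 and CDH1 ran from 32.8 FPKM (CDH1) to 2300.9 FPKM (KRT19) over the libraries of both lines. The lung adenocarcinoma factor NKX2-1 reached 18.7 to 117 FPKM in H2009 of the compound table and was at most 1.04 FPKM in H596. The other adenocarcinoma markers looked up, NAPSA and SFTPB, had no values. The squamous markers TP63 (61.1 to 88.3 FPKM) and KRT5 (880.1 to 1452 FPKM) were high in H596 and below 1 FPKM in H2009 of that table, whereas the labels call both lines adenocarcinoma. SOX2, also looked up as a squamous marker, was at 31.2 to 53.3 FPKM in H596 and 2.05 to 10.6 FPKM in H2009 there. Of the 8 markers of other cell types, 3 or 4 had a row in each table and CD68 was the highest, with a group mean of at most 19.3 FPKM. Summed FPKM of the compound libraries ran from 503785 to 749060, with replicate 2 of Compound C in H2009 the highest.

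Export of a finished mRNA is coupled to its making. DDX39A and DDX39B are closely related DEAD-box ATPases, each of which can join the THO complex and the adaptor ALYREF in an assembly called TREX (transcription-export), which is loaded on spliced mRNA. ALYREF then hands the RNA to NXF1, which with its partner NXT1 carries it through the nuclear pore. RUVBL1 and RUVBL2 are AAA+ ATPases that help to build large protein and RNA-protein complexes.

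The promoters of the 3 members with the largest differences after Compound B in H2009 are shown because DDX39A and DDX39B were lower there and NXF1 was higher. Each run covers 250 bases before to 50 bases after a gene start in RefSeq (GRCh38.p14), 5′ to 3′ on the gene's strand. Capitals mark matches, on either strand, to the CCAAT box (CCAAT), the ETS motif (CCGGAAGT), the E-box (CACGTG) or the GC box (GGGCGG, written CCGCCC where it lies on the other strand). The promoters lie at chr19:14419334-14419633 (minus strand; the first of 2 starts listed for DDX39A), chr6:31541954-31542253 (minus strand, DDX39B) and chr11:62805391-62805690 (minus strand, NXF1).
DDX39A: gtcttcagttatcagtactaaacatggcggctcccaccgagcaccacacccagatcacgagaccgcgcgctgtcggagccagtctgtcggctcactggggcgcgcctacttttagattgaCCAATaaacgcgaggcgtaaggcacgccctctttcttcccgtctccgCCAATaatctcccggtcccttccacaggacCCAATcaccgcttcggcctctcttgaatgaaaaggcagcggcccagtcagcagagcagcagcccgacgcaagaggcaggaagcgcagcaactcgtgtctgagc
DDX39B: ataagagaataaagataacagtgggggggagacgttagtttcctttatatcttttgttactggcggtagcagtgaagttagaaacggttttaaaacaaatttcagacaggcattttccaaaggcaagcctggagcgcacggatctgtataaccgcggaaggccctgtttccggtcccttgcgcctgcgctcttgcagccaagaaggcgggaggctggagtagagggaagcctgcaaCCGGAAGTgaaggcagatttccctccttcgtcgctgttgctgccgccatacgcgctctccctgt
NXF1: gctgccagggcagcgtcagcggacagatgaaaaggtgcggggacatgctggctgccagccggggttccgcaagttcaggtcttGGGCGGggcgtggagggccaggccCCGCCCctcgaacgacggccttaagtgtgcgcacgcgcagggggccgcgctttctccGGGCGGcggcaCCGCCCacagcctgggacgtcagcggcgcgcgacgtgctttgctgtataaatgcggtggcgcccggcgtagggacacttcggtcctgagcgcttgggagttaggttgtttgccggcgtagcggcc

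The DDX39A window held 3 CCAAT boxes, starting at -130, -83 and -53 relative to the start site, all on the gene's strand. A CCAAT box was present in 35.7% of 27305 promoters of the same length, and 3 or more in 3.42%. The DDX39B window held none of them and 1 ETS motif at -14, a sequence present in 4.44% of promoters. NXF1 had 4 GC boxes and no match to the other 3 motifs. A GC box was present in 44.6% of promoters, and 3 or more in 15.9%. Among the 9 members with a listed promoter (THOC7 had none), ALYREF and THOC6 also held 1 CCAAT box each, that of THOC6 on the opposite strand. THOC2 held 2 GC boxes, and ALYREF, THOC1, THOC3, THOC5 and THOC6 held 1 each. ALYREF and THOC5 held 1 ETS motif each, and none of the 9 held an E-box, which 7.43% of promoters did. These matches describe letters in a window and say nothing about which factor binds there.

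DDX39A stood well below its controls with Compound B in both lines. In H2009, the 2 Compound B libraries had 16.6 and 18.4 FPKM, against 73.7 and 95.3 FPKM untreated and 60.8 and 123 FPKM with Compound C. Both Compound B libraries thus lay below all 4 others of the line, and the mean was 20.7% of the untreated mean. The difference was -2.20 on the log2(FPKM + 1) scale (SE 0.46, n = 2 per group), and -2.09 and -2.31 within replicate numbers 1 and 2. This was the 8th lowest value of the 12781 genes compared.

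In H596, DDX39A was at 26.1 and 36.1 FPKM with Compound B, 57.3 and 120 FPKM untreated, and 52.8 and 111 FPKM with Compound C. Again the Compound B libraries were below the other 4, although the untreated pair itself differed by 1.05 on the log2 scale. The mean with Compound B was 35.2% of the untreated mean, a log2 difference of -1.40 (SE 0.46, n = 2), with -1.11 and -1.70 within replicates 1 and 2. By rank it was the 4th lowest. The difference of H596 was thus 0.80 smaller in size than that of H2009 (SE 0.65), which is given without a test. Ordered by mean, the groups of the compound table ran from Compound B in H2009 (17.5 FPKM) and Compound B in H596 (31.1 FPKM) to Compound C in H596 (82.1), untreated H2009 (84.5), untreated H596 (88.5) and Compound C in H2009 (92.1). The last 4 groups overlapped, while the libraries of the first and second groups did not overlap with each other or with any other group.

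After knockdown of RUVBL1 the DDX39A difference was smaller. H2009 had 19.8 and 18.3 FPKM with siBL1 and 34.9 and 32.3 FPKM with siNT. Both siBL1 libraries lay below both controls, at 56.6% of the control mean, with a log2 difference of -0.79 (SE 0.28, n = 2) that was -0.79 within each replicate number. In H596 the values were 41.7 and 37.7 FPKM with siBL1 and 77.8 and 74.6 FPKM with siNT, again without overlap. That mean was 52.1% of the control mean, a log2 difference of -0.92 (SE 0.22), with -0.88 and -0.97 within replicates 1 and 2. By rank, DDX39A was the 694th lowest of 11223 genes in H2009 and the 24th lowest of 12004 in H596. In bulk RNA a lower level in every cell and a lower level in only some cells cannot be told apart.

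**Figure D1:**
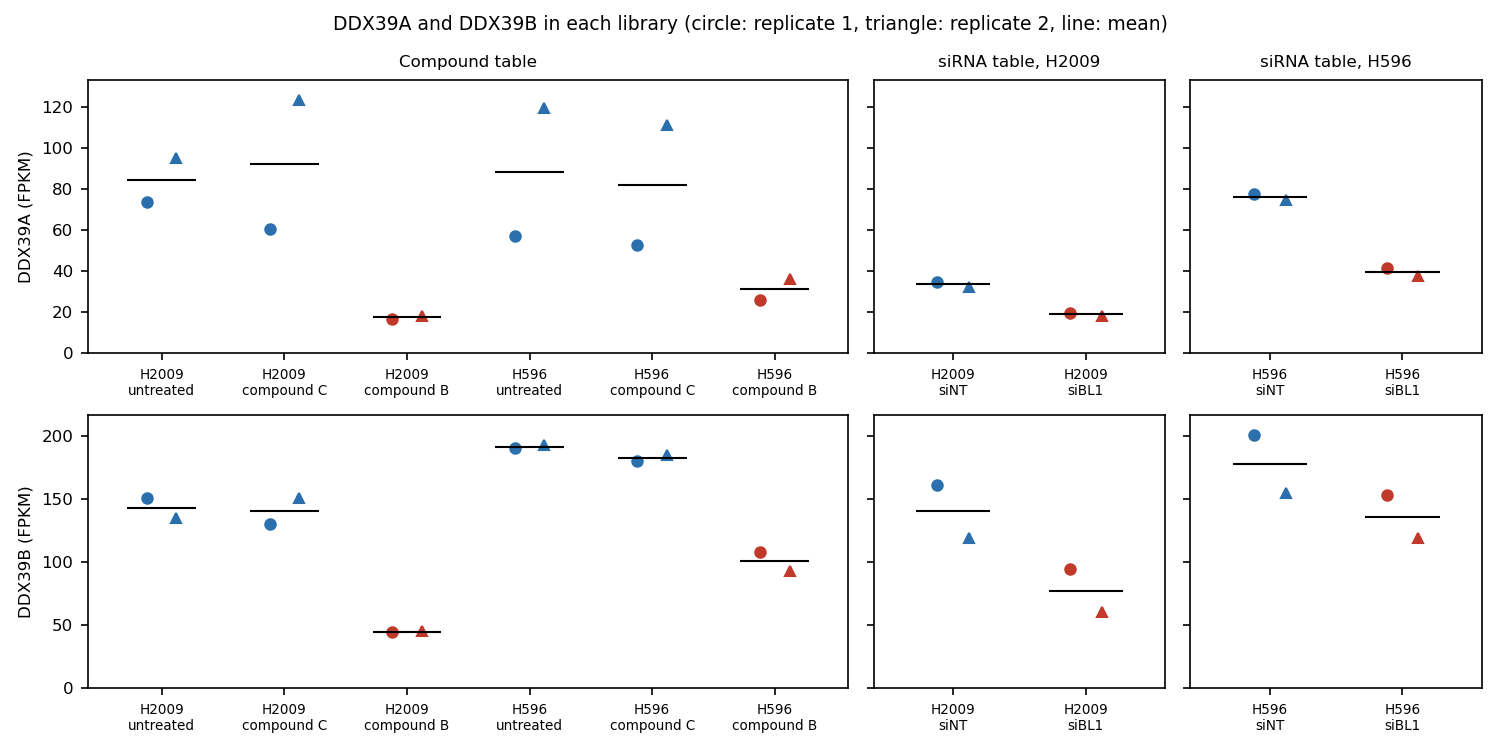
Level of DDX39A (top) and DDX39B (bottom) in FPKM in each of the 20 libraries, by group, with replicate 1 as a circle, replicate 2 as a triangle and the group mean as a line; red marks Compound B and siBL1. The red points of DDX39A lie below the blue points of the same line and table in all 4 comparisons, with 16.6 and 18.4 FPKM for Compound B in H2009 the lowest of the compound table; the 3 tables were deposited separately, so levels compare within a table only.

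Compound C left DDX39A near its untreated level by this measure, with wide intervals. At the same dose and time, Compound C against untreated cells gave a log2 difference of 0.05 in H2009 (95% interval -0.99 to 1.09) and -0.11 in H596 (95% interval -1.15 to 0.93), and the limma adjusted p was 1 in both. Against Compound C, Compound B was lower by -2.25 in H2009 and -1.30 in H596 on the log2 scale, with no overlap of the libraries. The untreated libraries serve in the comparisons with both compounds, so these values are not independent.

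DDX39B, the paralogue, fell with Compound B in H2009. Its libraries had 44.5 and 45.5 FPKM with Compound B, 151 and 135 FPKM untreated, and 130.4 and 151 FPKM with Compound C. The Compound B libraries lay far below the other 4, at 31.4% of the untreated mean, and the log2 change was -1.65 (SE 0.18, n = 2). It passed the limma test over all 12781 genes (adjusted p = 0.000896). Compound B against Compound C gave -1.62 (SE 0.18, limma adjusted p = 0.000999).

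In H596, DDX39B had 108 and 93.5 FPKM with Compound B, 190.5 and 193 FPKM untreated, and 181 and 185 FPKM with Compound C. Here too the Compound B libraries were below the other 4, but the log2 difference of -0.92 (SE 0.18, n = 2) did not pass adjustment over all genes (limma adjusted p = 0.209; 0.26 against Compound C). The test of the difference between the lines gave 0.72 (95% interval 0.15 to 1.29) with an adjusted p of 0.369 in limma. With Compound C the intervals of DDX39B were -0.43 to 0.37 in H2009 and -0.47 to 0.33 in H596 (limma adjusted p = 1 in both), narrower than those of DDX39A.

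With siBL1, DDX39B in H2009 was at 94.4 and 60.6 FPKM against 161 and 120 FPKM with siNT. The groups did not overlap, and the log2 difference of -0.87 (SE 0.38, limma adjusted p = 0.967) was -0.77 and -0.97 within replicates 1 and 2. In H596 it was at 153.6 and 118.9 FPKM against 200.9 and 154.8 FPKM, so the groups were separated by a narrow gap. There the log2 difference was -0.38 (SE 0.27, limma adjusted p = 1.00), and -0.39 and -0.38 within the replicates. DDX39B was the only other member with both treated libraries below both controls in all 4 comparisons, a pattern that 162 of 10300 genes tested in all of them showed (1.57%).

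The 2 paralogues were compared within each library as the ratio of DDX39A to DDX39B FPKM, both per length. In H2009 it was 0.373 and 0.404 with Compound B, against 0.487 and 0.706 untreated and 0.466 and 0.818 with Compound C. Both Compound B libraries were thus lower, by 0.60 on the log2 scale against untreated cells. In H596 the ratio was 0.241 and 0.387 with Compound B and 0.301 and 0.619 untreated, and these groups overlapped. The log2 difference there was -0.50, with -0.32 and -0.68 within replicate numbers 1 and 2. After siBL1 the ratio in H596 was 0.272 and 0.317 against 0.387 and 0.482 with siNT, lower by 0.56 on the log2 scale. In H2009 it was 0.209 and 0.301 against 0.216 and 0.270, which overlapped, so there DDX39A and DDX39B were lower to a like degree. DDX39B exceeded DDX39A in all 20 libraries. No source used here says how reads that match both of these similar genes were counted, so the levels and the ratio are uncertain to that extent.

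**Figure D2:**
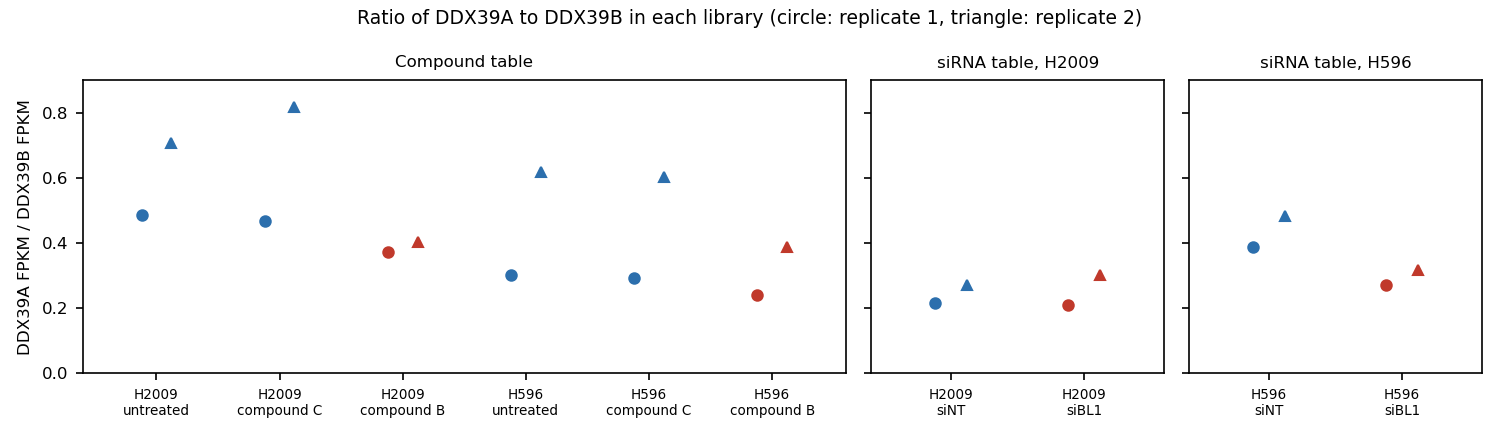
Ratio of DDX39A FPKM to DDX39B FPKM in each of the 20 libraries, by group, with replicate 1 as a circle and replicate 2 as a triangle; red marks Compound B and siBL1. The ratio lies below 1 throughout, and replicate 2 lies above replicate 1 in every group, for example 0.301 and 0.619 in untreated H596.

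DDX39A differed between replicate numbers in the compound table, by unequal amounts. On the log2 scale, replicate 2 minus replicate 1 was 1.01 with Compound C in H2009, 1.06 with Compound C in H596, 1.05 in untreated H596 and 0.37 in untreated H2009, and it was 0.14 and 0.46 with Compound B in H2009 and H596. DDX39B differed by at most 0.21 in size between replicates of that table. The labels do not say what the number marks.

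Across the 9 members other than DDX39A, those called in H2009 with Compound B were 3: DDX39B and THOC6 fell and NXF1 rose. Over all 12781 genes the share called was 11.4% (5.02% lower and 6.36% higher), with a limma adjusted p under 0.05 as the threshold. Of the 9, 5 had both Compound B libraries below both untreated ones and 2 had both above, against 28.1% and 26.3% of all genes. Their median log2 difference was -0.38, beside -0.01 over all genes. In H596 0 of 9 were called, as were 0% of all genes, with 2 of the 9 and 735 of all genes (5.75%) at an unadjusted p under 0.05 in limma. There 3 members lay below and 1 above without overlap, against 15.2% and 12.8% of all genes, and the median was -0.17 beside -0.03.

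After siBL1, limma called 0 of the 9 in either line and 0% of all genes, with 0 of the 9 at an unadjusted p under 0.05 in both lines. Among all genes 532 of 11223 in H2009 (4.74%) and 137 of 12004 in H596 (1.14%) were under that unadjusted value. RUVBL1, the target of the siRNA, was itself among the genes not called in either line, despite the levels given above. A lack of calls in these fits of 4 libraries, which left the replicate number out, therefore does not show that a member was unchanged. When the number was included, 42.4% of all genes passed in H2009 and 46.4% in H596. Of the 9 members, 3 passed in H2009 and 7 in H596. What the number marks is not stated, so those calls are an alternative only. In H2009, 2 members (DDX39B and THOC6) lay below their controls without overlap and 0 above, against 18.9% and 12.1% of all genes. In H596 there were 3 below (DDX39B, ALYREF and THOC3) and 0 above, against 8.64% and 9% of all genes. The median of the 9 was -0.13 in H2009 and -0.23 in H596, beside -0.08 and -0.01 over all genes.

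**Figure D3:**
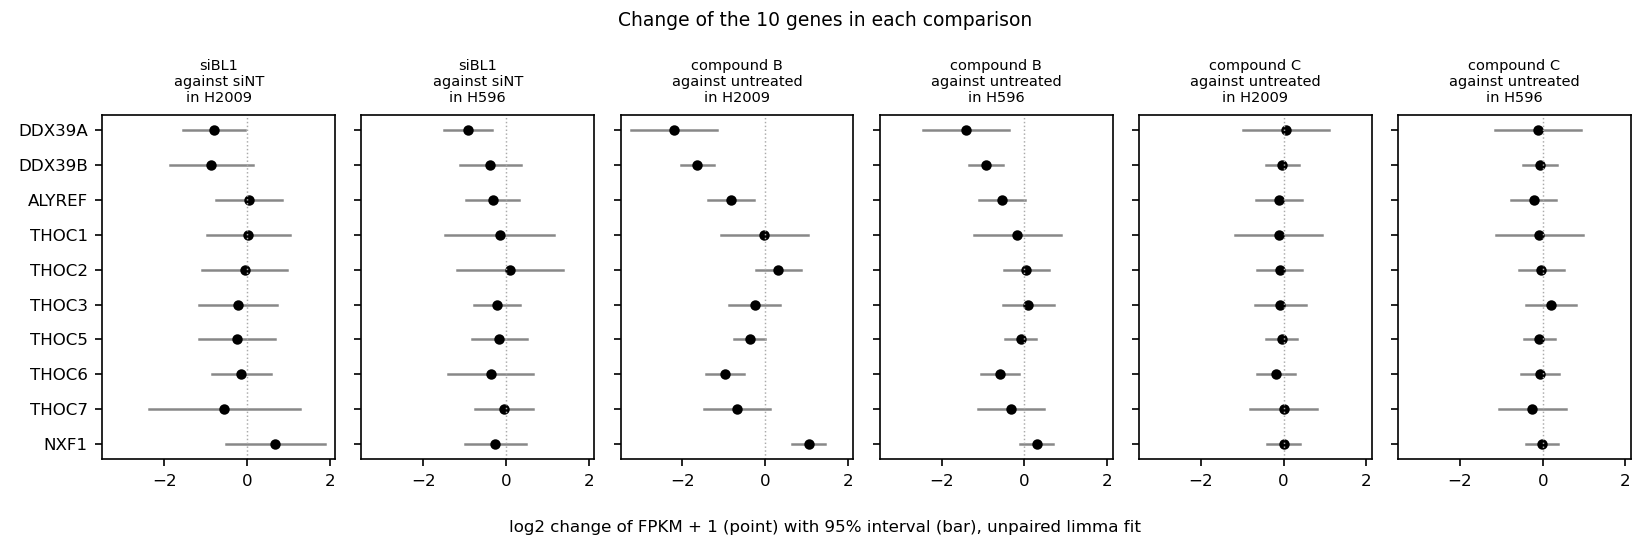
Log2 difference (FPKM + 1) of each of the 10 genes in 6 comparisons, as points with 95% intervals from limma; values below 0 are lower with siBL1 or the compound. With Compound B in H2009, DDX39A (-2.20) and DDX39B (-1.65) lie farthest to the left and NXF1 (1.05) to the right. The Compound C points lie between -0.25 and 0.20. DDX39A is shown for description only: its siBL1 and Compound B values chose the genes, so its intervals there are not a test.

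NXF1, the receptor that carries mRNA through the pore, rose with Compound B in H2009 while the helicases were lower. Its levels were 66.9 and 60.1 FPKM with Compound B, 32.3 and 28.0 FPKM untreated, and 32.0 and 28.5 FPKM with Compound C. Both Compound B values were thus higher than the other 4, with a log2 change of 1.05 (SE 0.18, n = 2) and a limma adjusted p of 0.00619. Without replicate 1 of Compound B the adjusted p was 0.0679, and without replicate 2 of the untreated cells it was 0.0503, with log2 changes of 0.98 and 0.95. Against Compound C the change was 1.05 (limma adjusted p = 0.00656; 0.0697 without replicate 1 of Compound B).

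In H596, NXF1 had 28.0 and 31.9 FPKM with Compound B against 23.4 and 24.9 FPKM untreated. These groups were separate too, with a log2 difference of 0.30 (SE 0.18) that did not pass (limma adjusted p = 1). The test of the difference between lines gave -0.76 (95% interval -1.31 to -0.20, limma adjusted p = 0.324). With siBL1, NXF1 was at 69.3 and 35.5 FPKM in H2009 against 36.7 and 25.3 FPKM with siNT, and at 18.1 and 14.7 FPKM in H596 against 22.7 and 17.1 FPKM. The groups overlapped in both lines. The log2 differences were 0.68 (SE 0.45, limma adjusted p = 1.00) and -0.26 (SE 0.27, limma adjusted p = 1.00).

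NXT1, the partner with which NXF1 forms the active receptor, moved the other way in H2009. Its mean was 13.4 FPKM with Compound B and 28.3 FPKM untreated, with no overlap and a log2 change of -1.04 (SE 0.28, limma adjusted p = 0.0432). In H596 the means were 28.2 and 42.0 FPKM, also without overlap (log2 difference -0.54, limma adjusted p = 0.985). The second NXF1 partner gene, NXT2, gave -0.38 (SE 0.38) in H2009, with overlapping libraries.

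ALYREF, the adaptor recruited by the helicases, was among the most abundant members in H2009. Its levels there were 181 and 158 FPKM with Compound B, 303 and 299 FPKM untreated, and 272 and 287 FPKM with Compound C. Both Compound B libraries were below the other 4, but the log2 difference of -0.83 (SE 0.24, n = 2) just missed the threshold (limma adjusted p = 0.0582). In H596 the values were lower from the start, at 51.0 and 61.9 FPKM with Compound B against 66.8 and 101 FPKM untreated. These groups did not overlap (log2 difference -0.54, SE 0.24, limma adjusted p = 0.877). With Compound C the log2 differences of ALYREF were -0.11 in H2009, without overlap, and -0.22 in H596, with overlap. With siBL1 in H2009, ALYREF was at 119.9 and 118 FPKM, between the 103 and 126 FPKM of the controls. In H596 it was at 58.8 and 52.3 FPKM against 76.3 and 64.0 FPKM, a log2 difference of -0.33 (SE 0.23, limma adjusted p = 1.00).

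Among the THO subunits, THOC6 fell with Compound B in H2009. It had 6.04 and 5.59 FPKM with Compound B, 12.8 and 12.1 FPKM untreated, and 9.40 and 12.5 FPKM with Compound C. The Compound B libraries were the lowest of the line, with a log2 change of -0.98 (SE 0.21, limma adjusted p = 0.0161) against untreated cells and -0.80 (limma adjusted p = 0.0368) against Compound C. Leaving out any 1 of the 4 libraries compared with untreated cells raised the adjusted p to between 0.0721 and 0.0946, and with the libraries of H2009 alone it was 0.0838. In H596, THOC6 had 24.5 and 21.8 FPKM with Compound B against 32.3 and 38.3 FPKM untreated, without overlap (log2 difference -0.59, SE 0.21, limma adjusted p = 0.628). After siBL1 the log2 differences of THOC6 were -0.13 in H2009 and -0.37 in H596, the latter with overlapping libraries.

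**Figure D4:**
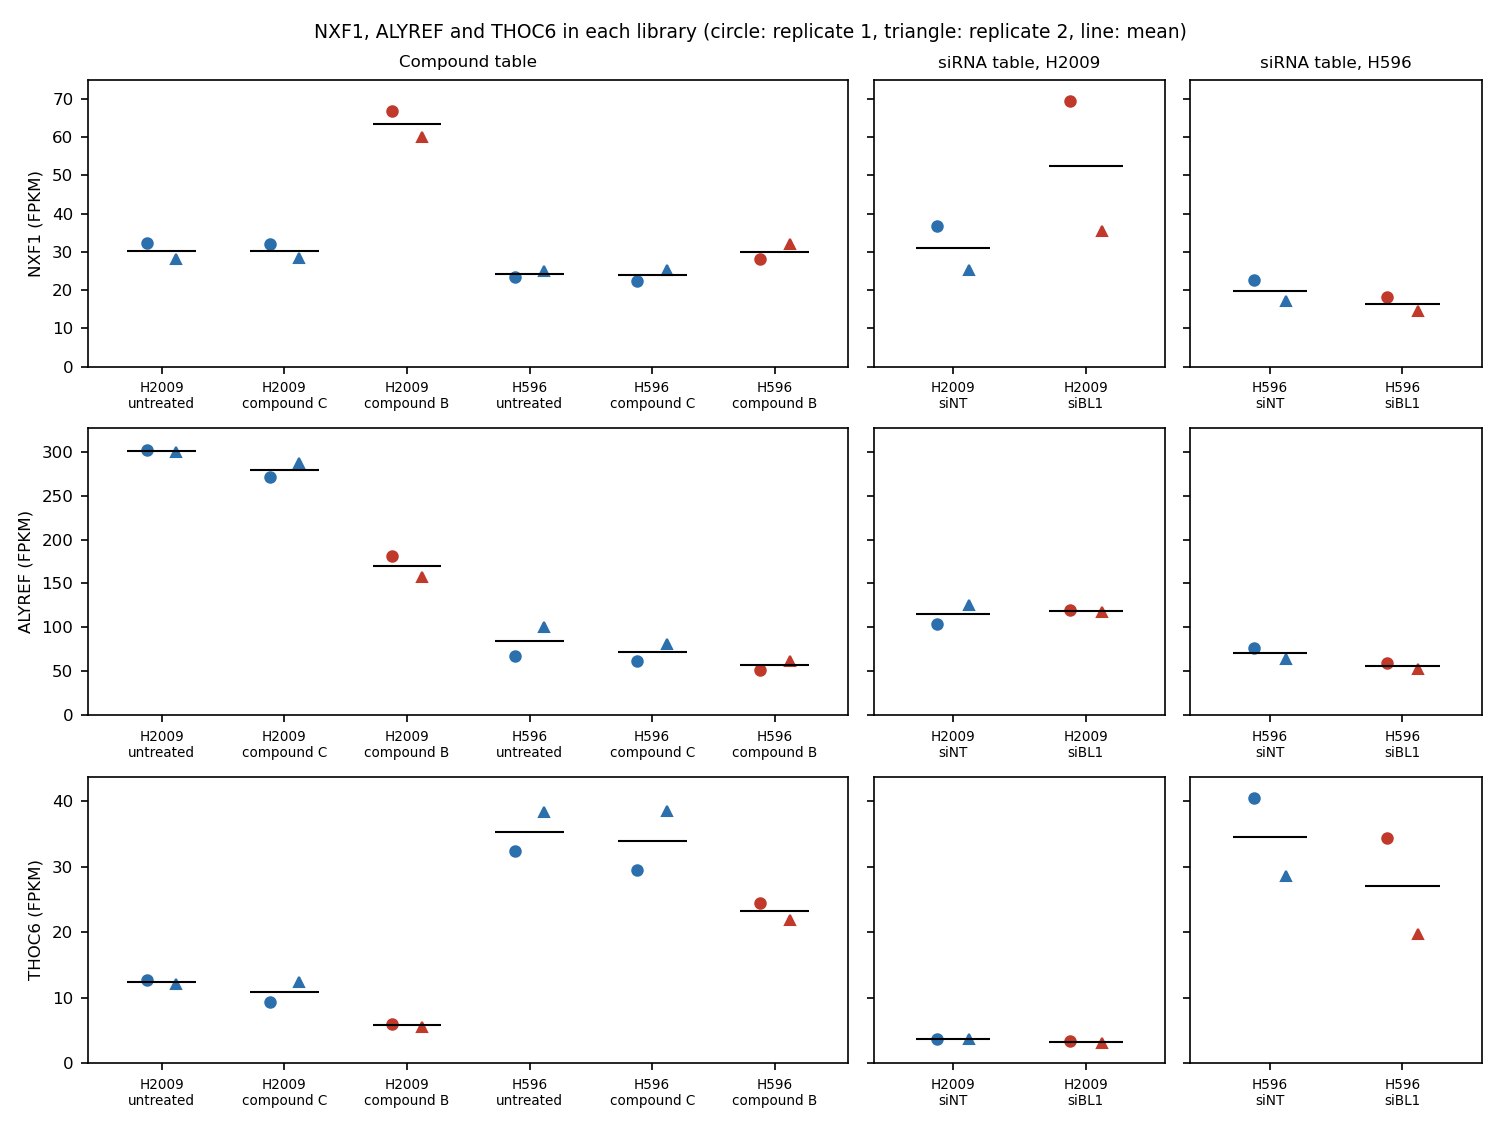
Level of NXF1, ALYREF and THOC6 in FPKM in each of the 20 libraries, by group, with replicate 1 as a circle, replicate 2 as a triangle and the group mean as a line; red marks Compound B and siBL1. In H2009 the Compound B points of NXF1 (66.9 and 60.1 FPKM) lie above the untreated and Compound C points and those of ALYREF and THOC6 lie below them.

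The other 5 subunits of the THO complex gave log2 differences smaller in size than that of THOC6 with Compound B in H2009, and none passed. THOC2, the large scaffold of the complex, had 25.1 and 27.4 FPKM with Compound B in H2009 and 19.2 and 22.6 FPKM untreated. It was higher without overlap (log2 difference 0.32, SE 0.24, limma adjusted p = 0.465). THOC5 was at 25.2 and 25.3 FPKM against 33.1 FPKM in both untreated libraries. It was lower without overlap but did not pass (log2 difference -0.38, SE 0.16, limma adjusted p = 0.181). THOC7 was at 124 and 73.1 FPKM against 176 and 133 FPKM, also separate (log2 difference -0.68, SE 0.36, limma adjusted p = 0.271). THOC1 and THOC3 overlapped their controls, with log2 differences of -0.02 (SE 0.47) and -0.26 (SE 0.27). In H596 with Compound B these 5 subunits all overlapped the untreated libraries, with log2 differences from -0.33 (THOC7) to 0.10 (THOC3).

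After siBL1, THOC1, THOC2, THOC5 and THOC7 overlapped their controls in both lines. THOC3, the least abundant member by group mean in all 10 groups, overlapped in H2009 and in H596 lay at 6.92 and 6.52 FPKM against 7.91 and 8.14 FPKM, a log2 difference of -0.23 (SE 0.20, limma adjusted p = 1.00). THOC1 and THOC2 showed how far replicate numbers can separate: THOC1 in untreated H596 was 31.2 FPKM in replicate 1 and 62.4 FPKM in replicate 2. Several members share their locus with another gene in RefSeq, among them ALYREF with ANAPC11 and THOC6 with HCFC1R1, and THOC3 has near-identical copies. How reads of such genes were assigned is not stated, so their values are uncertain. HCFC1R1 in H2009 had 39.1 and 16.7 FPKM with Compound B and 19.3 and 10.7 FPKM untreated, higher within each replicate number. In H596 it was lower within each replicate number, as THOC6 was, with 49.0 and 15.8 FPKM with Compound B against 55.3 and 23.7 FPKM, and with 43.8 and 14.8 FPKM after siBL1 against 62.1 and 23.3 FPKM. Its part in the values of THOC6 was not tested.

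No member passed with Compound C. The limma fit called 0 of 9 in H2009, where 0.00782% of all genes were called (1 gene), and 0 of 9 in H596, where the share was 0%. At an unadjusted p under 0.05 there were 0 of the 9 in both lines, and 9 (0.0704%) and 20 (0.156%) of all genes. For DDX39A the adjusted p was 1 as given above. Compound B against Compound C called the same number of members as against untreated cells in H2009, 3 of 9 (11.4% of all genes; DDX39B and THOC6 lower, NXF1 higher). In H596 it called 0 of 9, with 0.00782% of all genes called and 2 of the 9 and 599 of all genes (4.69%) at an unadjusted p under 0.05. For the difference between the lines limma called 0 of 9 (0.454% of all genes), with 2 of the 9, DDX39B and NXF1, and 9.04% of all genes at an unadjusted p under 0.05.

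Levels in untreated cells differed between the lines by member. THOC6 had a mean of 12.4 FPKM in H2009 and 35.3 FPKM in H596, ALYREF 301 and 83.8 FPKM, and THOC5 33.1 and 16.2 FPKM, each without overlap. DDX39B (143 and 192 FPKM) and NXF1 (30.2 and 24.2 FPKM) were separate too. DDX39A (84.5 and 88.5 FPKM) and THOC1 (32.9 and 46.8 FPKM) overlapped, as did THOC2, THOC3 and THOC7. The share of all genes separated between the lines is not given, so these separations are description only. In untreated H2009, per length, ALYREF was the highest of the 10, followed by THOC7 (154 FPKM) and DDX39B (143 FPKM), whose libraries overlapped, and THOC3 (4.87 FPKM) the lowest.

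Beyond the 10 members, 34 other genes of mRNA export were tested. With Compound B in H2009, 4 of them fell and 0 rose, with a median log2 difference of -0.29, beside 5.02% of all genes lower, 6.36% higher and a median of -0.01. The strongest were the splicing factor and export adaptor gene SRSF1 (mean 41.0 against 107 FPKM untreated, log2 change -1.35, SE 0.17, limma adjusted p = 0.00177), NXT1 as given above, and SRSF2 (log2 change -0.94, limma adjusted p = 0.0119). CHTOP, a TREX component, fell by 0.92 on the log2 scale (SE 0.26, limma adjusted p = 0.0497). In H596 0 of the 34 were called and the median was -0.09. After siBL1 0 of the 34 were called in either line, with medians of -0.06 in H2009 and -0.06 in H596.

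Of 8 other RNA export receptors and their regulators, 1 fell with Compound B in H2009 (5.02% of all genes did): RCC1, which charges RAN with GTP in the nucleus and so powers XPO1-type export. Its mean was 16.1 FPKM with Compound B and 44.2 FPKM untreated (log2 change -1.39, SE 0.18, limma adjusted p = 0.00192). The median of the 8 was -0.54 in H2009 and -0.37 in H596 with Compound B (all genes -0.01 and -0.03), and -0.33 and -0.29 after siBL1 (all genes -0.08 and -0.01), with 0 called outside H2009 with Compound B. The main export receptor XPO1 gave -0.52 (SE 0.24) with Compound B in H2009 and did not pass (limma adjusted p = 0.208). The exon junction complex marks spliced mRNA and binds TREX. Of 10 of its genes, 0 were called with Compound B in H2009, where 11.4% of all genes were. Their median there was -0.26, beside -0.01 over all genes. Of these 10, 5 lay below the untreated libraries without overlap, against 28.1% of all genes, and 0 lay above. Of 33 other DEAD-box helicases tested with Compound B in H2009, 2 fell (DDX60, log2 change -0.80, limma adjusted p = 0.0400; DDX43, -0.59, limma adjusted p = 0.0499) and 0 rose, with a median of -0.24. That count is near the 5.02% of all genes called lower there.

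Proliferation markers were measured beside the members. All 8 proliferation markers were above 1 FPKM in every group, and none was at 0. Their summed level was 945 to 1020.4 FPKM with Compound B and 1337 to 1466 FPKM untreated in H2009, and 1049.5 to 1075 against 1220.5 to 1328 FPKM in H596. After siBL1 it was 1048 to 1079 against 1522 to 1538 FPKM in H2009 and 707 to 734 against 929 to 989.8 FPKM in H596. The sum was therefore below the controls in all 4 comparisons. In H2009 with Compound B 1 of the 8 fell, the mitotic cyclin CCNB1 (log2 change -0.93, limma adjusted p = 0.0431), beside 5.02% of all genes, and in the other 3 comparisons 0 of the 8 were called. With Compound B, 6 of the 8 in H2009 and 2 in H596 lay below the untreated libraries without overlap, against 28.1% and 15.2% of all genes. After siBL1 the counts were 3 in H2009 and 4 in H596, against 18.9% and 8.64% of all genes. In each of these 4 comparisons 0 of the 8 lay above. The replication clamp gene PCNA had a mean of 389 FPKM with Compound B in H596 against 355 FPKM untreated, with overlap. Among 11 tested lung and epithelial markers 2 fell with Compound B in H2009, NKX2-1 (-1.83, limma adjusted p = 0.0111) and SOX2 (-1.69, limma adjusted p = 0.00156), beside the same 5.02% of all genes. The adhesion gene CDH1 of that list was higher there without overlap (mean 233 against 152 FPKM) but did not pass (log2 difference 0.61, SE 0.24, limma adjusted p = 0.136). The part of proliferation or of cell identity in the values of the 10 genes was not tested.

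Some genes tracked DDX39A closely over the 12 compound libraries, after the mean of each line was subtracted. The 8 with the highest Pearson r among 5415 variable genes were CENPA, FAM92A1, CHTOP, CCT3, NPM1, PHB2, RBMX and HSP90AB1, with r between 0.98 and 0.99. Among the members THOC6 came nearest (r = 0.96, rank 55), followed by ALYREF (0.94, rank 101) and DDX39B (0.91, rank 216), while NXF1 was at -0.85. These r values share libraries, scaling and the replicate difference, and the selection fixes them, so they carry no test.

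The siRNA values of these 8 genes took no part in their selection. CENPA, the histone H3 variant of centromeres, had 22.7 and 14.7 FPKM with siBL1 in H2009 against 38.9 and 25.6 FPKM with siNT, and 20.8 and 19.8 FPKM in H596 against 35.7 and 33.0 FPKM. It lay below its controls without overlap in both lines, by -0.76 and -0.73 on the log2 scale. Of the other 7, FAM92A1, CHTOP, NPM1 and RBMX lay below their controls without overlap in H2009 only. CCT3, PHB2 and HSP90AB1 did so in H596 only, with log2 differences of -0.36, -0.46 and -0.21. In H2009 these 3 genes overlapped their controls, with log2 differences of -0.56, -0.38 and -0.52. The share of all genes below their controls without overlap was 18.9% in H2009 and 8.64% in H596. RBMX, an RNA-binding protein of the nucleus, gave -0.67 in H2009 without overlap and -0.35 in H596 with overlap. NPM1, a nucleolar chaperone, gave -0.71 without overlap and -0.26 with overlap. CHTOP, the TREX component of the 8, gave -0.28 without overlap and -0.11 with overlap.

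**Figure D5:**
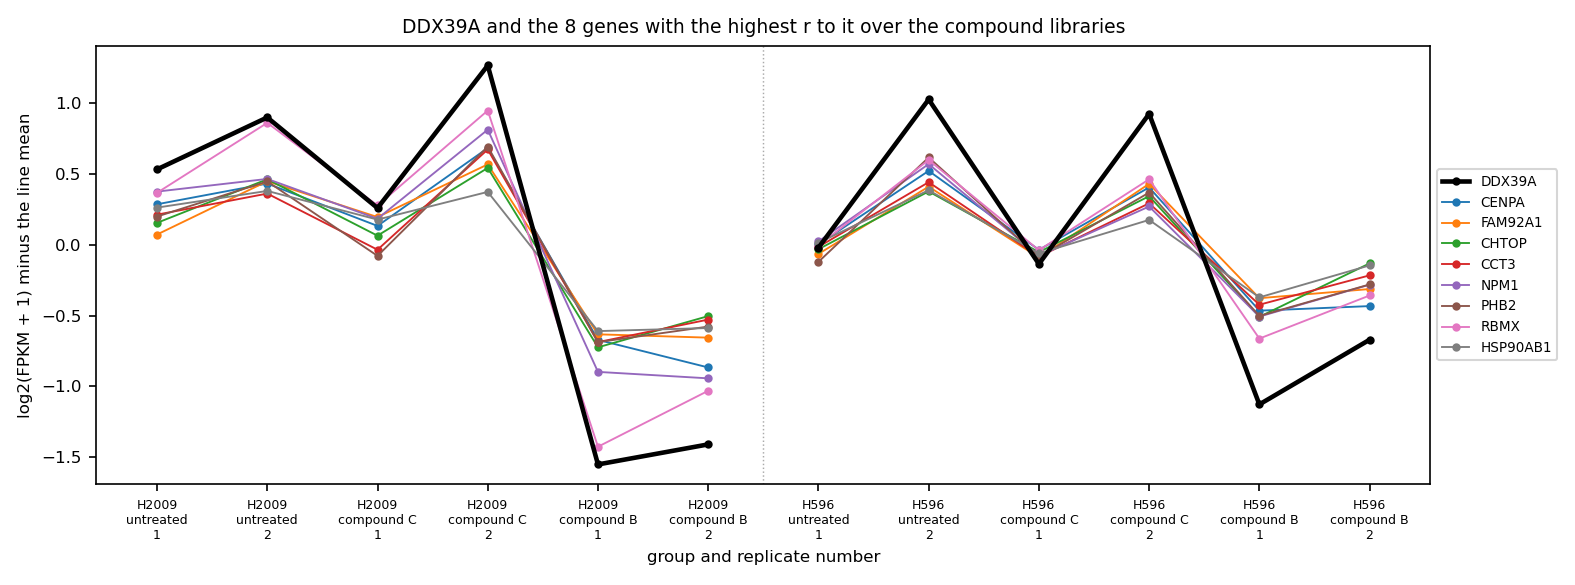
Log2(FPKM + 1) minus the mean of the line for DDX39A (black) and the 8 genes with the highest r to it (r 0.98 to 0.99), in each of the 12 compound libraries; lines only join the points of a gene. All 9 genes are lowest in the Compound B libraries and higher in replicate 2 than in replicate 1 of the untreated and Compound C groups.

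Genes next to DDX39A in RefSeq (GRCh38.p14) did not all share its pattern. CD97 (ADGRE5 in RefSeq), an adhesion receptor gene, had 37.0 and 25.8 FPKM with Compound B in H2009 against 23.7 and 15.8 FPKM untreated, higher in both libraries than their same-numbered controls. GIPC1 was at 75.3 and 63.0 FPKM against 126 and 87.8 FPKM, lower without overlap. With Compound B in H596 and after siBL1 in both lines GIPC1 overlapped its controls, though it was lower within each replicate number.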

How the data were processed

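RNA was measured in 20 libraries prepared with a TruSeq Stranded mRNA kit, per the labels' protocols. The values are FPKM per gene, which the authors deposited in 3 tables (13481 genes for both compounds, 12087 entries for the siRNA in H2009 and 12384 genes for the siRNA in H596). The submitters' processing notes name CASAVA 1.8.2, TopHat2 2.0.12, Cufflinks 2.2.1 and the hg19 build. Whether reads were counted by strand is not stated. The tables may have been scaled separately, so tests stayed within a table. From the H2009 siRNA values, 19 entries were dropped whose names are dates. The 8 libraries of cDNA sequencing were not used here.

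Differences were tested with limma 3.58.1 (R 4.3.3) on log2(FPKM + 1), a scale that understates changes of low genes, letting the prior variance follow the mean level, and p-values were adjusted over all tested genes by the Benjamini-Hochberg method (threshold 0.05). A gene was tested if its FPKM averaged 1 or more in the siRNA table, or in either line for the compounds. A single fit of 6 group means held the 12 compound libraries, and each siRNA fit held 4 libraries. Replicate number was not in the model, and a fit with it as a block was an alternative. The labels do not state that replicates came from separate cultures; the p-values therefore reflect library-to-library spread, which may be technical. The scripts were tested on simulated data.

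The 10 genes and the other lists were chosen with earlier results of these data known. Named beyond the 10 were the called genes of each other list with the largest change with Compound B in H2009 (up to 3 in each direction, without overlap), the 8 genes with the highest r to DDX39A (SD of at least 0.3 around the line means), and the 3 genes nearest to DDX39A on each side, as far as they had values; a result that fell under this rule is not reported here. NXT2, XPO1, HCFC1R1, PCNA and CDH1 fall outside this rule and were named for their role or position after their values were seen. RefSeq tables (GRCh38.p14) gave promoters for 9 of the 10 genes and were used for names and neighbours.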

Additional observations from a re-analysis of the deposited data

Results flagged for a closer look

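In the siRNA comparison, ALYREF and NXF1 had differences of opposite sign in the lines, none of which passed the limma test. Against the mean of the siNT libraries, both siBL1 libraries of ALYREF were above it in H2009 (log2 difference 0.06) and below it in H596 (-0.33). NXF1 was above it in H2009 (0.68) and below it in H596 (-0.26). The siRNA tables were deposited separately and the exposure differed (2.5 and 3 days), so the difference between the lines was not tested. THOC3 was below the untreated mean in both Compound B libraries of H2009 (-0.26) and above it in both of H596 (0.10). The limma test of that difference between the lines gave 0.36 (SE 0.38, adjusted p = 0.943).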

How the results depend on the processing

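The 42 differences given for members were recomputed under 386 alternatives, of which 342 were counted as unchanged. For a tested difference this meant the same direction and side of the threshold. For the untested differences of DDX39A it meant a shift smaller than the pooled SD of the groups compared. The fall of DDX39B with Compound B in H2009 passed under every alternative run for it, also without replicate 2 of Compound C in H2009, a choice made after seeing the data. With quantile normalization DDX39A after siBL1 in H2009 was at -0.71 in place of -0.79, and the small values of THOC1 with Compound B in H2009 (0.10), of DDX39A with Compound C in H2009 (-0.0185) and of NXF1 with Compound C (-0.0055 in H2009, 0.0118 in H596) changed sign.

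Leaving out 1 library at a time, the members called with Compound B in H2009 numbered 1 to 2 against untreated cells (of 3) and 1 to 3 against Compound C. Without replicate 1 of Compound B or replicate 2 of the untreated cells only DDX39B was called. The ranges that crossed 0 were, after siBL1, -0.085 to 0.20 for ALYREF in H2009 and -0.75 to 0.0125 for THOC6 in H596. With Compound B they were -0.43 to 0.39 for THOC1 in H2009, -0.0283 to 0.22 for THOC3 in H596 and -0.70 to 0.0418 for THOC7 in H596. With Compound C they were -0.46 to 0.55 (H2009) and -0.64 to 0.42 (H596) for DDX39A, -0.13 to 0.0759 for DDX39B in H2009, and -0.0937 to 0.11 (H2009) and -0.10 to 0.0679 (H596) for NXF1. In these fits a lone library was assumed to vary like the other groups.

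With the replicate number as a block, members called (of 9) were 3 and 7 after siBL1 in H2009 and H596, 6 and 1 with Compound B against untreated cells, 7 and 1 against Compound C, 0 with Compound C and 2 for the difference between lines. Over all genes that fit called 42.4% and 46.4% after siBL1, and 44.6% and 6.67% with Compound B against untreated cells. It called 45.6% and 4.66% for Compound B against Compound C, 0.0156% and 0% with Compound C, and 14.3% for the difference between lines. DDX39B passed in both lines after siBL1 (limma adjusted p = 0.000604 and 0.000386) and with Compound B in H596 (0.00669). Differences between replicate 1 and replicate 2 correlated between all 45 pairs of groups (r 0.48 to 0.98 over 10300 genes). Each comparison has only 2 numbers, however, and the labels do not say what they mark, so the block was kept as an alternative. Depth is unknown, so no counting interval can be given for the low levels of THOC3 and THOC6 in H2009.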
